A study of Homo sapiens with 9 samples.

Results

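Small interfering RNA against CLOCK (siCLOCK) was compared with control in H1299 cells, a human line established from a non-small cell lung carcinoma, across all measured genes. The 3 control samples were cells in serum free medium, the 3 siCLOCK samples carry that treatment label alone, and these 6 samples of the 9 in the series were taken by their labels. The 3 remaining samples, given 0.1 mM melatonin, entered the estimate of how much each gene varies between libraries. They also entered the choice of genes to test and the scaling of libraries, and were not compared here. RNA-seq counts regardless of strand were tested for 16441 of 58721 genes. The labels name no non-targeting siRNA and no treatment time, and do not say whether siCLOCK cells were also in serum free medium, so loss of CLOCK, the delivery of any siRNA and a difference in medium cannot be told apart. The samples are called independent without saying whether they were separate cultures, so the p-values reflect the spread among these 6 libraries and the 3 melatonin libraries alone, which may be technical.

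CLOCK is a transcription factor that pairs with BMAL1 (ARNTL) and binds the E-box, the DNA word CACGTG. The pair drives the PER and CRY genes, whose proteins repress it, and the nuclear receptors NR1D1 and NR1D2, which repress BMAL1. NPAS2 is a relative of CLOCK that can take its place in the pair. Beyond the clock, E-boxes and clock proteins have been tied to cell division and metabolism in many tissues, so pathways were described across all genes.

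Counts assigned to genes ranged from 18121101 (control replicate 3) to 19192962 (siCLOCK replicate 2). The library labelled siCLOCK replicate 3 stood apart. Unmapped reads made up 2.24% of its reads, against 1.22% to 1.36% in the other 5 libraries and 2.30% to 2.34% in the melatonin libraries. Processed pseudogenes (gene copies without introns) took 0.314% of its gene counts, against 0.163% to 0.172% in the other 5 and 0.317% to 0.324% with melatonin. The first principal component of the 6 libraries (27.7% of the variance) placed it at 30.8 and the other 5 between -13.5 and -1.67. EEF1A1P5, a processed pseudogene of a translation factor chosen after its values were seen, lay at 618 CPM (counts scaled to library size) in that library and at 149 to 166 in the remaining 5, and its log2 fold change was 0.98 with that library (adjusted p = 0.360) and -0.01 without it. Fold changes and list medians are therefore given with all libraries and without this one, and where a fold change or list median is followed by a second one, the second is without it unless the text says otherwise. Whether these traits bear on its values was not tested, and the labels do not say whether it was prepared or sequenced apart from the others.

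Markers of the line were present. In controls KRT8 and KRT18, keratins of simple epithelia, lay at 164 ± 21.3 and 269 ± 26.2 CPM (SD, n = 3), and VIM, the filament protein of mesenchymal cells, at 1853 ± 150 CPM. Summed markers of other cells were low in all 6 libraries: 4.62 to 7.27 CPM for leukocytes (CD3E and MS4A1 at 0), 2.90 to 4.19 for fibroblasts (LUM at 0), 5.63 to 7.25 for endothelium and 1.41 to 1.99 for lung epithelium (SFTPA1 and SCGB1A1 at 0). The erythroid sum of 21.7 to 25.2 CPM was nearly all EPOR, and HBB was at 0.

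CLOCK itself (chr4:55427903-55547138, GRCh38, reverse strand) lay at 39.0, 38.6 and 44.4 CPM in control replicates 1 to 3. In siCLOCK it lay at 20.9 CPM in replicate 1, 32.0 in replicate 2 and 38.1 in replicate 3, which were 51.5%, 78.7% and 93.8% of the control mean of 40.7 ± 3.26 CPM (SD, n = 3). All 3 siCLOCK values were below all controls, but the third missed the lowest control by less than 1 CPM. CLOCK thus differed widely between the libraries labelled siCLOCK, and unequal knockdown and an error in the label of the third cannot be told apart here. The log2 fold change was -0.42 ± 0.14 (SE) with an adjusted p of 0.340 in edgeR's quasi-likelihood test. With siCLOCK replicate 3 left out it was -0.62 ± 0.12 with an adjusted p of 0.0211, a call that was lost when the melatonin libraries were also left out of the estimate of spread (adjusted p = 0.0928). Without siCLOCK replicate 1 it was -0.21, with an adjusted p of 0.333. An exact permutation test on the CPM, two-sided, gave p = 0.1, the smallest that 3 against 3 libraries allow. Among the 11158 genes with a mean of at least 5 CPM in the 6 libraries, ranked from the lowest against the control mean, CLOCK was number 8 in replicate 1, 156 in replicate 2 and 3256 in replicate 3.

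NR1D2 (REV-ERB beta), a direct target of the CLOCK and BMAL1 pair, showed the same order. It lay at 35.3, 32.3 and 31.4 CPM in controls and at 12.8, 25.7 and 30.9 in siCLOCK replicates 1 to 3, with replicate 1 far below the rest. Its log2 fold change was -0.51 ± 0.18 (adjusted p = 0.393), and it fell without siCLOCK replicate 3 (-0.78 ± 0.16, adjusted p = 0.0275). NPAS2 was at 18.8, 20.7 and 21.5 CPM in controls and at 26.1, 27.9 and 25.7 in siCLOCK, a change of 0.38 ± 0.08 (adjusted p = 0.0747). The groups did not overlap, the siCLOCK values were even across the libraries, and NPAS2 rose without siCLOCK replicate 3 (0.40, adjusted p = 0.0391). Of the repressors, PER3 stood at 12.6 to 13.9 CPM in controls and 11.0 to 11.6 in siCLOCK (-0.26, adjusted p = 0.393; -0.25 and 0.360 without siCLOCK replicate 3). CRY2 stood at 6.45 to 7.41 and 7.50 to 10.7 (0.37, adjusted p = 0.416; 0.47 and 0.124). Of 14 measured clock activators and regulators and 13 repressors and outputs, none passed with all 3 libraries. Without siCLOCK replicate 3 the calls were CLOCK, NR1D2 and NPAS2, and without the melatonin libraries as well NR1D2 and NPAS2 did not pass either (adjusted p = 0.107 and 0.162).

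A few other genes, chosen after their values were seen, were low in siCLOCK replicate 1 and near the controls elsewhere. CFL2, a muscle-type cofilin that severs actin filaments, lay at 146 to 160 CPM in controls and at 65.0, 153 and 177 in siCLOCK. CD164, a sialomucin of the cell surface, lay at 312 to 364 CPM in controls and at 163, 357 and 376. The atypical MAP kinase MAPK6 lay at 135 to 154 and at 75.8, 135 and 146. CBFB, the partner of the RUNX factors, lay at 76.7 to 87.3 and at 45.4, 70.2 and 80.9, and was the only one of these 4 that fell without siCLOCK replicate 3 (-0.50, adjusted p = 0.0498; -0.31 and 0.511 with all libraries). RAB13, a small GTPase of vesicle traffic, was the reverse case, at 27.0 CPM in siCLOCK replicate 2 and at 13.1 to 14.7 elsewhere. The CFL2 and CD164 differences were 0.12 each with siCLOCK replicate 1 left out, and that of RAB13 was -0.01 with siCLOCK replicate 2 left out. With all libraries the log2 fold changes of CFL2, CD164, MAPK6 and RAB13 were -0.21, -0.18, -0.25 and 0.38, and with the third siCLOCK library left out -0.48, -0.38, -0.43 and 0.57.

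**Figure D1:**
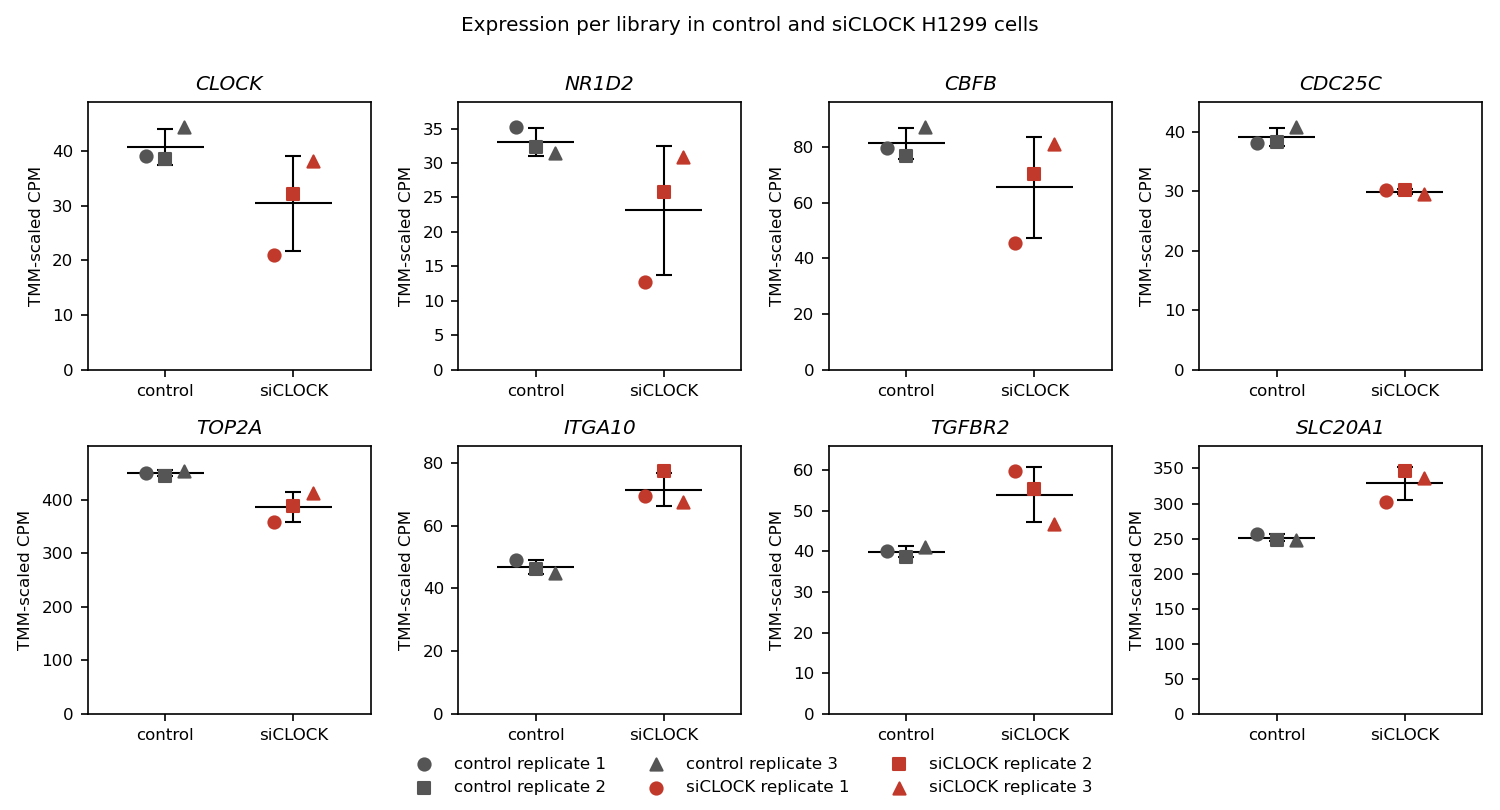
TMM-scaled CPM of 8 genes in each control and siCLOCK library, 1 panel per gene, with marker shape for the replicate number and black bars for the mean and SD of 3 libraries. CLOCK, NR1D2 and CBFB are lowest in siCLOCK replicate 1 and reach or near the controls in replicate 3, whereas CDC25C (29.4 to 30.2 CPM) and ITGA10 (67.6 to 77.6 CPM) are even across the siCLOCK libraries.

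Across all genes, 9 were higher in siCLOCK (0.0547% of those tested) and 11 lower (0.0669%) at an adjusted p under 0.05, and 1355 (8.24%) had an unadjusted p under 0.05. The higher genes encode an integrin, a receptor, a cytokine, a protease inhibitor, a hyaluronan synthase and a phosphate carrier, and most of the lower genes belong to amino acid supply and its stress response. Without siCLOCK replicate 3, 57 genes were higher (0.347%) and 41 lower (0.249%), 98 in all (0.596%), and the 20 genes called with every library were all among them. The counts moved strongly with single libraries: 70 and 39 without siCLOCK replicate 1, of which 20 higher genes were processed pseudogenes, 13 and 27 without control replicate 3, 3 and 1 without control replicate 2, and 1 and 1 without control replicate 1 or siCLOCK replicate 2. With the melatonin libraries also left out of the estimate of spread, 12 of the 98 genes passed, 7 higher and 5 lower. Most of the rises and falls given below for the fit without siCLOCK replicate 3 were thus lost in that narrower fit.

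ITGA10 (chr1:145891208-145910189, reverse strand), the alpha chain of a collagen-binding integrin, had the lowest adjusted p. It lay at 49.2, 46.3 and 44.8 CPM in controls and at 69.5, 77.6 and 67.6 in siCLOCK, so that every siCLOCK library was at least 145% of the control mean. The log2 fold change was 0.61 ± 0.07 (1.53-fold, adjusted p = 0.00119), and 0.65 without siCLOCK replicate 3 (adjusted p = 0.000352). ITGA10 passed in all 19 alternative fits. ITGA10 and SLC7A11 were the only calls of the 20 that held with each library left out in turn: all others were lost without control replicate 1 and without siCLOCK replicate 2, and all but SERPINE2 and SH3TC2-DT also without control replicate 2. SERPINE2 (protease nexin 1), a secreted inhibitor of thrombin and of plasminogen activators, lay at 86.6, 92.4 and 84.5 CPM in controls and at 117, 127 and 115 in siCLOCK. It rose by 0.45 ± 0.07 (adjusted p = 0.00971), and by 0.47 without siCLOCK replicate 3 (adjusted p = 0.00262).

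TGFBR2 (chr3:30606502-30694142), the type II receptor for TGF-beta, was at 40.1, 38.5 and 41.1 CPM in controls and at 59.8, 55.3 and 46.6 in siCLOCK. Replicate 3 was here the nearest to the controls. The rise was 0.43 ± 0.08 (adjusted p = 0.0425), and 0.52 without that library (adjusted p = 0.0016). LIF, a cytokine of the IL6 family, was at 47.2 to 52.2 CPM in controls and at 66.3, 69.2 and 59.1 in siCLOCK (0.40 ± 0.07, adjusted p = 0.0424; 0.46 without siCLOCK replicate 3, adjusted p = 0.00627). SLC20A1, a sodium-phosphate importer, was at 248 to 257 CPM in controls and at 302, 347 and 337 in siCLOCK (0.39 ± 0.06, adjusted p = 0.0164; 0.37 and 0.0151 without siCLOCK replicate 3). In these genes the controls lay within a narrow range and no siCLOCK library overlapped them.

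FAM3C, a secreted protein linked to epithelial-mesenchymal transition, rose by 0.43 ± 0.08 from 493 ± 40.8 to 664 ± 66.2 CPM (SD, n = 3), with 590 CPM in siCLOCK replicate 1 and 719 and 683 in replicates 2 and 3. SH3TC2-DT, a long non-coding RNA, rose by 0.68 ± 0.11, from 10.4 to 13.8 CPM in controls to 16.8 to 20.2. HAS3, which makes hyaluronan, the sugar polymer of the pericellular coat, rose by 0.63 ± 0.12, from 5.94 to 7.41 CPM to 9.34 to 11.6. HAS3 overlaps CHTF8 on the other strand, and reads in the overlap are left out of the counts regardless of strand: control replicate 1 had 112 HAS3 reads there and 444 and 335 in the columns for each strand. In those columns the HAS3 difference was -0.01 and 0.12, so its rise rests on the reads outside the overlap. Without siCLOCK replicate 3 the log2 fold changes of FAM3C, SH3TC2-DT and HAS3 were 0.40, 0.76 and 0.70.

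The 11 lower genes are given briefly. CHAC1, which degrades glutathione, lay at 20.5, 20.5 and 15.4 CPM in controls and at 5.30, 9.67 and 10.6 in siCLOCK. It fell by 1.14 ± 0.18 on the log2 scale (adjusted p = 0.0164), and by 1.33 without siCLOCK replicate 3 (adjusted p = 0.0016). SLC7A11, the cystine importer, lay at 17.3 to 21.8 CPM in controls and at 8.98 to 11.6 in siCLOCK, and fell by 0.94 ± 0.12 (adjusted p = 0.00196; -1.03 and 0.000612 without siCLOCK replicate 3). PHGDH, the first enzyme of serine synthesis, was at 112 to 135 CPM in controls and at 91.9, 91.2 and 91.8 in siCLOCK, and fell by 0.47 ± 0.07 (adjusted p = 0.0111; -0.48 and 0.00627 without siCLOCK replicate 3). PSAT1 of the same pathway, MTHFD2 of mitochondrial folate metabolism, the stress genes TRIB3 and SESN2, the hormone gene ADM2, GADD45B, the neurexophilin NXPH4 and ASNSP1 also fell, by 0.34 (MTHFD2) to 1.06 (NXPH4). These 8 also fell without siCLOCK replicate 3, with log2 fold changes from -0.37 (MTHFD2) to -1.16 (ASNSP1). ASNSP1 is a pseudogene copy of the asparagine synthetase gene ASNS, and reads shared between the copies make its value uncertain. Of 23 measured genes of ATF4 and amino acid supply, 8 fell with all libraries (0.0669% of all genes) and 11 without siCLOCK replicate 3 (0.249%). The list's medians were -0.44 and -0.48, against 0.00 over all genes. By library the median was 0.10, 0.05 and -0.18 in control replicates 1 to 3, so the third control lay below the others. In siCLOCK replicates 1 to 3 it was -0.34, -0.44 and -0.39.

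**Figure D2:**
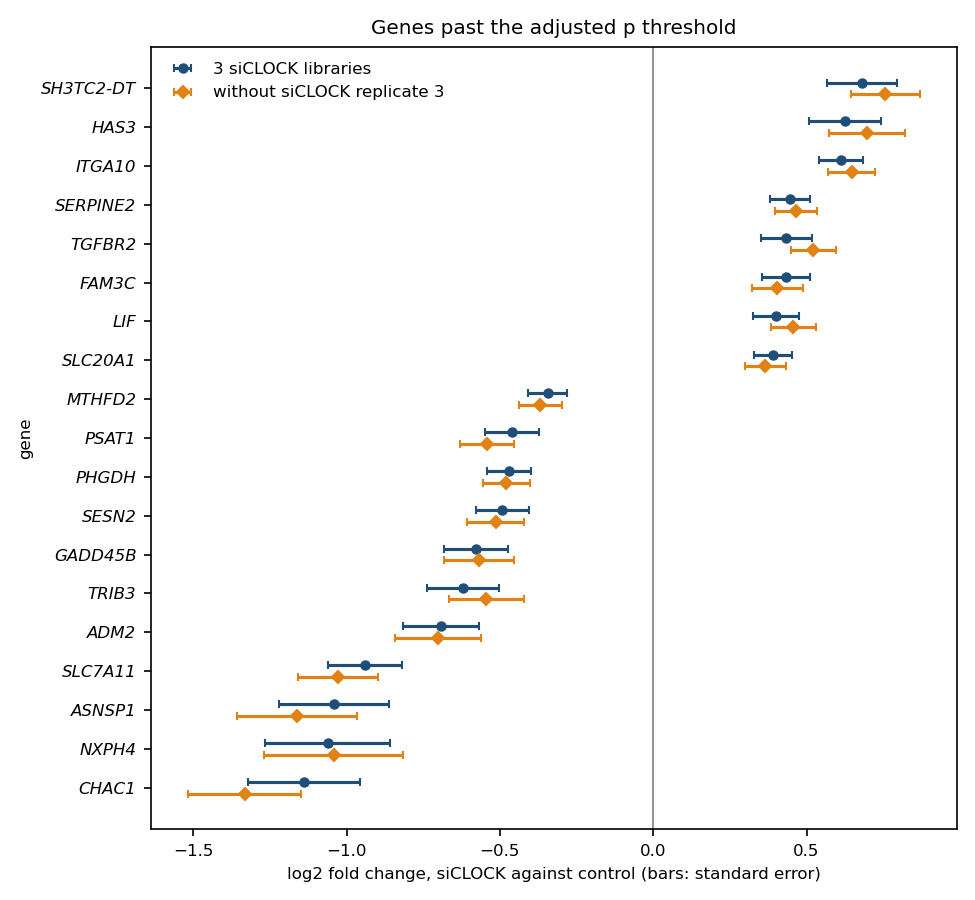
Log2 fold change of siCLOCK against control with its standard error for 19 of the 20 genes past an adjusted p of 0.05, with all 3 siCLOCK libraries (circles) and without siCLOCK replicate 3 (diamonds). Both estimates lie on the same side of 0 for every gene shown, from -1.14 (CHAC1) to 0.68 (SH3TC2-DT) with all libraries.

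For the 98 genes called without siCLOCK replicate 3, the values of that library are a description only: 20 of the genes were called with it as well, and it is set against the same 3 controls that served to call them. Of the 57 higher genes it lay above the control mean for 56 and above all 3 controls for 50. Of the 41 lower genes it lay below the control mean for 39 and below all controls for 32. Over all genes tested, that library lay above all controls for 27.6% and below all for 28.5%. Its distances were smaller: the median log2 difference from the control mean was 0.19 for the higher genes, against 0.41 in each of replicates 1 and 2, and -0.24 for the lower genes, against -0.49 and -0.38. For 50 of the 57 and 32 of the 41, its difference in the direction of the call was smaller than in both other siCLOCK libraries. These include any genes for which it lay on the other side of the control mean. The genes were called on replicates 1 and 2, so the medians of those libraries are large, and this order is frequent, by that choice.

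Most genes of cell division stood slightly lower in siCLOCK. Of 89 measured genes in 4 lists (mitotic entry and exit, spindle and kinesins, kinetochore and checkpoint, and condensin, cohesin and chromosome structure), 83 had a log2 fold change below 0, with a median of -0.15 and a range of -0.38 to 0.09, against a median of 0.00 over all genes. None passed the adjusted p with all libraries. At an unadjusted p under 0.05, 44 of the 89 were lower and none higher, against 3.75% lower and 4.49% higher of all genes. For 48 of the 89 all 3 siCLOCK libraries lay below all controls, against 5.06% of all genes. Members of this and the other lists were measured in the same libraries and are not independent observations. The lists were also chosen with earlier results of these data known, so such counts are a description only. The median of the 89 was -0.16, -0.18 and -0.10 in siCLOCK replicates 1 to 3, and -0.03, 0.01 and 0.02 in the controls. Without siCLOCK replicate 3 the median was -0.18, and 53 genes were lower and none higher at an unadjusted p under 0.05 (5.88% and 5.07% of all genes). In that fit 5 were lower at an adjusted p under 0.05, against 0.249% of all genes: CDC25C, HMMR, CKAP2, CENPK and TOP2A. All 5 calls were lost when the melatonin libraries were also left out of the estimate of spread (adjusted p = 0.11 to 0.231).

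CDC25C, the phosphatase that activates CDK1 at mitotic entry, had the smallest p of the 89. It lay at 38.0, 38.3 and 40.8 CPM in controls and at 30.1, 30.2 and 29.4 in siCLOCK, the siCLOCK libraries within 1 CPM of each other. The change was -0.38 ± 0.08 (adjusted p = 0.0516), and CDC25C fell without siCLOCK replicate 3 (-0.38, adjusted p = 0.0372). ESPL1, the separase that cuts cohesin at anaphase, was at 129 to 150 CPM in controls and at 109 to 120 in siCLOCK (-0.28 ± 0.07, adjusted p = 0.159; -0.27 and 0.124 without siCLOCK replicate 3). AURKA, a kinase of centrosomes and the spindle, was at 257 to 285 and 230 to 237 CPM (-0.20 ± 0.06, adjusted p = 0.309; -0.21 and 0.163).

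TOP2A, the topoisomerase that untangles sister chromatids, lay at 450, 445 and 454 CPM in controls and at 358, 388 and 413 in siCLOCK. All 3 siCLOCK libraries were below the controls, replicate 3 the least (-0.22 ± 0.06, adjusted p = 0.269), and TOP2A fell without it (-0.28, adjusted p = 0.0494). The condensin subunits SMC4 and SMC2 stood at 296 to 322 and 146 to 159 CPM in controls and at 248 to 269 and 128 to 139 in siCLOCK (-0.25 and -0.18, adjusted p = 0.151 and 0.393). With replicate 3 left out they were at -0.25 and -0.21 (adjusted p = 0.0828 and 0.192).

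HMMR, a spindle protein that also binds hyaluronan, was at 161 to 173 CPM in controls and at 113, 146 and 149 in siCLOCK (-0.30 ± 0.08, adjusted p = 0.240). It fell without siCLOCK replicate 3 (-0.37, adjusted p = 0.0445), as did the microtubule protein CKAP2 (-0.28, adjusted p = 0.0452; -0.20 and 0.355 with all libraries). Of the motors, KIFC1 was at 89.9 to 104 CPM in controls and 73.9 to 83.0 in siCLOCK, and KIF2C at 200 to 217 and 180 to 187 (-0.27 and -0.20, adjusted p = 0.230 and 0.290). At the kinetochore, NDC80 was at 115 to 122 and 96.0 to 99.9 CPM (-0.26, adjusted p = 0.122), and CENPE at 101 to 109 and 85.6 to 90.4 (-0.23, adjusted p = 0.233). For these 4 genes the siCLOCK libraries did not overlap the controls, and without siCLOCK replicate 3 KIFC1, KIF2C, NDC80 and CENPE were at -0.22, -0.19, -0.25 and -0.25 (adjusted p = 0.101 to 0.226). The checkpoint gene MAD2L1 was at 56.7 to 61.3 CPM in controls and at 53.8, 37.0 and 46.1 in siCLOCK (-0.36, adjusted p = 0.230; -0.38 and 0.114 without siCLOCK replicate 3), lowest in replicate 2. CENPK fell without siCLOCK replicate 3 (-0.42, adjusted p = 0.0211; -0.25 and 0.476 with all libraries), and in that library it stood at 46.8 CPM, within the control range of 43.6 to 47.1.

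**Figure D3:**
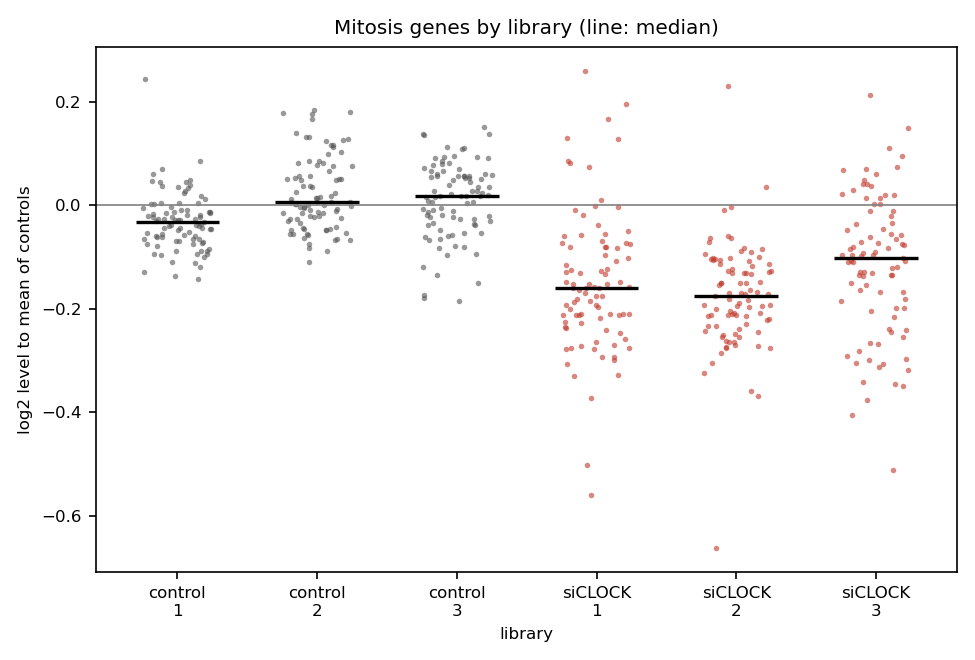
Log2 level of the 89 mitosis genes in each library against the mean of the 3 controls, 1 point per gene with the median as a bar. The siCLOCK medians lie at -0.16, -0.18 and -0.10, and the control medians between -0.03 and 0.02.

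Promoters of mitotic genes are known to carry the CHR element (TTTGAA) and CCAAT boxes, and 2 of them are shown. They were chosen after the matches were seen: of the 5 mitosis genes that fell without siCLOCK replicate 3, these are the ones with a CHR word in the window. The windows run from 250 bases before to 50 after a transcript start in RefSeq on GRCh38.p14, TOP2A at chr17:40417847-40418146 (reverse strand) and HMMR at chr5:163460382-163460681 (forward strand), and capitals mark both words on either strand.
TOP2A: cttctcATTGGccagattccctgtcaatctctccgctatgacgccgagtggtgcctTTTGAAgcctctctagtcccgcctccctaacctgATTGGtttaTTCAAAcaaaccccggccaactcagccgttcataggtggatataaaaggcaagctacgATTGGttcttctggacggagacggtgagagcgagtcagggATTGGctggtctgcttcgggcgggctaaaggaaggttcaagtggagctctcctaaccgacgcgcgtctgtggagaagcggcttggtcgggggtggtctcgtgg
HMMR: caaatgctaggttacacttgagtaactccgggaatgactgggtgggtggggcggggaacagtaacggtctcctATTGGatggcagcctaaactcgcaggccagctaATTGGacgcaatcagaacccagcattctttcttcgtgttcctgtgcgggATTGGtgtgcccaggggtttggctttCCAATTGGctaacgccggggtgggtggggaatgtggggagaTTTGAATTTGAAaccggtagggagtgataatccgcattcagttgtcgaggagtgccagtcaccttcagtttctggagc
TOP2A held 2 CHR and 4 CCAAT words and HMMR 2 and 5. Of the 89 mitosis genes 73 had a window, of which 44 (60.3%) held TTTGAA and 50 (68.5%) CCAAT, against 9.36% and 36.5% of the windows of the 10942 tested genes that had one. The 89 were listed for their mitotic function, so these shares describe such promoters and not a response to siCLOCK. Of the 41 genes lower without siCLOCK replicate 3, 31 had a window and 2 of these (6.45%) held TTTGAA, TOP2A and HMMR. The E-box CACGTG was in 7 of the 73 (9.59%), against 10.1% of all. These are matches of letters in 1 window per gene, the first listed, not measured binding sites.

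Of 36 measured replication and licensing genes, 29 were below 0 (8055 of 16441 over all genes), with a median of -0.09. At an unadjusted p under 0.05, 2 were lower, against 3.75% of all genes. None passed the adjusted p with or without siCLOCK replicate 3 (median -0.06 without it). The list medians were 0.04, -0.15 and -0.12 in siCLOCK replicates 1 to 3, and 13 of the 36 genes lay above all controls in replicate 1 but none in replicate 2, against 31.1% and 26.6% of all genes. The licensing factor CDT1 was at 130 to 149 CPM in controls and 114 to 129 in siCLOCK (-0.20, adjusted p = 0.426; -0.16 and 0.440 without siCLOCK replicate 3). UHRF1, which carries DNA methylation through replication, is in another list. That list, DNA methylation and replication-coupled chromatin (16 genes), had medians of -0.10 and -0.04 with no gene called. UHRF1 was at 97.3, 103 and 102 CPM in controls and 78.0, 86.4 and 75.4 in siCLOCK (-0.34 ± 0.07, adjusted p = 0.0705). Without siCLOCK replicate 3 it was at -0.30 (adjusted p = 0.0698). Nucleotide synthesis (22 genes) and homologous recombination (21 genes) had medians of -0.03 and -0.06 (0.00 and -0.10 without siCLOCK replicate 3) with no gene called. RAD51AP1, a recombination factor (-0.17 with and without that library), lay below all controls in all 3 siCLOCK libraries.

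A pair of regulators of the G1 phase rose when siCLOCK replicate 3 was left out. CCND1 (cyclin D1), which starts the cell cycle with CDK4, was at 403, 406 and 426 CPM in controls and 513, 499 and 470 in siCLOCK (0.26 ± 0.06, adjusted p = 0.099), and rose without that library (0.29, adjusted p = 0.0275). CDKN1A (p21), an inhibitor of cyclin-dependent kinases, was at 82.0 to 91.3 CPM in controls and 111, 110 and 93.6 in siCLOCK (0.28 ± 0.07, adjusted p = 0.222), and also rose without it (0.35, adjusted p = 0.026). In the third library CDKN1A was close above the highest control. Neither CCND1 nor CDKN1A passed when the melatonin libraries were also left out of the estimate of spread (adjusted p = 0.162 and 0.111). CDKN2C (p18) was at 75.8 to 76.5 and 61.2 to 66.6 CPM (-0.26, adjusted p = 0.159; -0.26 and 0.111 without siCLOCK replicate 3). The 23 measured genes of cyclins, E2F factors and inhibitors had medians of 0.01 and -0.02.

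Genes of adhesion and the matrix held several of the higher calls, while their lists as a whole moved little. Of 16 measured integrin subunits, 11 were above 0 (median 0.10, and 0.09 without siCLOCK replicate 3), with ITGA10 higher with all libraries and ITGA5 also without that library. ITGA5, the fibronectin receptor chain, was at 89.6 to 95.9 CPM in controls and 109, 126 and 102 in siCLOCK (0.27 ± 0.07, adjusted p = 0.240; 0.33 and 0.0391 without siCLOCK replicate 3). ITGA2, a collagen receptor chain, was at 45.5 to 58.9 CPM and 62.7 to 73.0 (0.38, adjusted p = 0.099; 0.31 and 0.114).

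Of 32 measured collagens, laminins and matrix glycoproteins, 21 were above 0 (median 0.06, and 0.10 without siCLOCK replicate 3). LAMC1, the common laminin gamma chain, was at 137 to 144 CPM in controls and 150 to 175 in siCLOCK (0.22, adjusted p = 0.292). It rose without siCLOCK replicate 3 (0.28, adjusted p = 0.0414), and that library was the siCLOCK sample nearest to the controls. COL13A1, a transmembrane collagen, was at 51.7 to 53.6 and 58.9 to 72.7 CPM (0.35, adjusted p = 0.111; 0.31 and 0.114 without that library). COL12A1 was at 29.9 to 34.3 and 23.1 to 29.5 CPM (-0.33, adjusted p = 0.269; -0.31 and 0.200).

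The plasminogen system converts plasminogen to plasmin at the cell surface. The 21 measured matrix proteases, plasminogen genes and inhibitors had a median of 0.16 (0.18 without siCLOCK replicate 3), with 6 higher and none lower at an unadjusted p under 0.05, against 4.49% and 3.75% of all genes. PLAU (urokinase) was at 190 to 199 CPM in controls and 235, 233 and 217 in siCLOCK (0.23 ± 0.06, adjusted p = 0.172), and its receptor PLAUR at 84.5 to 98.9 and 124, 111 and 101 (0.27 ± 0.08, adjusted p = 0.269). Both rose without siCLOCK replicate 3 (0.26 and 0.33, adjusted p = 0.0493 and 0.0399), beside SERPINE2, the inhibitor of plasminogen activators. MMP1, a collagenase at a low level, was at 2.33 to 3.87 CPM and 4.92 to 6.45 (0.75 ± 0.18, adjusted p = 0.122; 0.80 and 0.0542 without siCLOCK replicate 3). In the hyaluronan list HAS3 rose, while its receptor CD44 was at 649 to 678 and 713 to 780 CPM (0.18, adjusted p = 0.318; 0.16 and 0.304). That list of 16 genes had a median of -0.07 with either set of libraries.

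Of 21 measured epithelial, mesenchymal and junction genes, 16 were below 0 (median -0.10, and -0.11 without siCLOCK replicate 3), and none passed with all libraries. CLDN1, a tight junction protein, was at 31.2 to 32.7 CPM in controls and 22.9, 24.7 and 28.8 in siCLOCK (-0.34 ± 0.09, adjusted p = 0.240), and fell without siCLOCK replicate 3 (-0.44, adjusted p = 0.0282). VIM overlapped between the groups, at 1726 to 2018 CPM in controls and 1797 to 1952 in siCLOCK (0.01 with and without siCLOCK replicate 3). The repressor ZEB2 was at 29.2 to 33.0 and 24.5 to 28.5 CPM (-0.21, adjusted p = 0.462; -0.26 and 0.258). YAP and TEAD targets (19 genes) and actin and SRF targets (21 genes) had medians of 0.01 each, and of 0.00 and 0.05 without siCLOCK replicate 3, with no call.

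Among signalling pathways, single members were called and the list medians stayed near 0. Of 23 TGF-beta genes (median 0.01, and 0.02 without siCLOCK replicate 3), TGFBR2 rose, and SKIL, a repressor of SMAD proteins, was at 38.1 to 45.4 CPM in controls and 31.1, 31.5 and 38.3 in siCLOCK and fell without siCLOCK replicate 3 (-0.40, adjusted p = 0.041; -0.29 and 0.340 with all libraries). In the IL6 and JAK-STAT list (21 genes, median 0.03, and 0.04 without that library), LIF rose, while SOCS3, a feedback inhibitor of the pathway, was at 24.5 to 25.9 CPM in controls and 21.9, 19.5 and 17.5 in siCLOCK (-0.37 ± 0.09, adjusted p = 0.151; -0.30 and 0.156).

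Of 19 ERK feedback genes, which are raised by ERK kinase signalling and dampen it, 12 were above 0 (median 0.08, and 0.09 without siCLOCK replicate 3). SPRY4, a Sprouty inhibitor, was at 317 to 375 CPM in controls and 391 to 440 in siCLOCK (0.28, adjusted p = 0.161), and rose without siCLOCK replicate 3 (0.31, adjusted p = 0.0452). The phosphatase DUSP6 was at 49.3 ± 3.17 CPM in controls and 58.9 ± 3.32 in siCLOCK (SD, n = 3), a change of 0.26 (adjusted p = 0.251; 0.28 and 0.101 without siCLOCK replicate 3). HBEGF, a ligand of the EGF receptor, is not in that list. It was at 14.3 to 17.8 CPM in controls and 26.5, 20.3 and 18.3 in siCLOCK, highest in replicate 1 (0.39 ± 0.12, adjusted p = 0.292). Without siCLOCK replicate 3 it was at 0.49 (adjusted p = 0.043).

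In the Wnt list (25 genes, medians of 0.00 and 0.01), SFRP1, a secreted Wnt inhibitor, was at 32.9 to 36.9 CPM in controls and 41.8 to 46.5 in siCLOCK (0.33 ± 0.07, adjusted p = 0.109), and rose without siCLOCK replicate 3 (0.36, adjusted p = 0.0391). FZD8, a Wnt receptor that is not in that list, was named for the size of its rise. It was at 10.9 to 15.6 and 18.5 to 21.2 CPM (0.55 ± 0.12, adjusted p = 0.0705), and also rose without siCLOCK replicate 3 (0.59, adjusted p = 0.0282). The Notch ligand JAG1 was at 44.8 to 47.7 and 54.7 to 58.2 CPM (0.27, adjusted p = 0.156; 0.29 and 0.0781). Its list of 19 genes had a median of -0.02 with either set of libraries. ID3, a target of BMP signalling, was at 81.5 to 101 CPM in controls and 131, 111 and 94.8 in siCLOCK (0.27, adjusted p = 0.449; 0.37 and 0.0746). The 17 BMP and ID genes had medians of 0.03 and -0.00 with no call. Of 22 immediate early genes (medians of -0.01 and 0.03), ATF3 fell without siCLOCK replicate 3 (-0.71, adjusted p = 0.0222; -0.59 and 0.0747 with all libraries), from 7.91 to 10.1 CPM in controls to 5.19, 5.86 and 6.82. It is shared with the ATF4 list.

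Lysosome genes lay slightly higher in all 3 siCLOCK libraries. Of 30 measured genes of lysosomes and autophagy, 27 were above 0 (median 0.11 with and without siCLOCK replicate 3), 9 were higher and none lower at an unadjusted p under 0.05 (4.49% and 3.75% of all genes), and for 10 all 3 siCLOCK libraries lay above all controls, against 5.75% of all genes. The library medians were 0.08, 0.17 and 0.08 in siCLOCK and -0.01 to 0.02 in controls. The protease carboxypeptidase CTSA was at 211 to 232 CPM in controls and 256, 303 and 261 in siCLOCK (0.29 ± 0.07, adjusted p = 0.146; 0.31 and 0.0508 without siCLOCK replicate 3). The sialidase NEU1, which it protects, was at 27.1 to 32.0 and 35.0 to 40.1 CPM (0.29 ± 0.09, adjusted p = 0.292; 0.32 and 0.146). SQSTM1 (p62), the autophagy cargo receptor, was at 342 to 390 CPM in controls and 467, 446 and 364 in siCLOCK, so that the third library lay within the controls, and it rose without that library (0.33, adjusted p = 0.0372; 0.24 and 0.404 with all libraries).

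FTL, the light chain of the iron store ferritin, was at 1059, 1039 and 955 CPM in controls and 1239, 1359 and 1224 in siCLOCK (0.32 ± 0.07, adjusted p = 0.0705), and rose without siCLOCK replicate 3 (0.35, adjusted p = 0.0282). FTL has many processed pseudogenes, and reads shared with them make its level uncertain. The 23 NRF2 and antioxidant genes had medians of -0.00 and, without that library, 0.03, with SLC7A11 as the gene that fell. Among 22 transporters of phosphate, metals and ions (medians of 0.04 and 0.03), SLC20A1 rose. The zinc importer SLC39A10 fell without siCLOCK replicate 3 (-0.48, adjusted p = 0.0493; -0.32 and 0.426 with all libraries), from 49.6 to 57.4 CPM in controls to 31.9, 45.5 and 51.3, lowest in replicate 1. The potassium channel KCNJ2, which is not in that list, was at 8.07 to 10.7 and 12.1 to 15.1 CPM (0.57, adjusted p = 0.0646). It rose without siCLOCK replicate 3 (0.59, adjusted p = 0.037), as did MSRA, a methionine sulfoxide reductase (0.46, adjusted p = 0.0275), and TPRG1L (0.46, adjusted p = 0.0167). With all libraries MSRA was at 0.39 (adjusted p = 0.156) and TPRG1L at 0.41 (adjusted p = 0.0583).

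Some lists differed more between the siCLOCK libraries than between the groups. Ribosome biogenesis (29 genes) had library medians of 0.22, -0.12 and -0.16 in siCLOCK replicates 1 to 3, with 21 genes above all controls in replicate 1 and 19 below all controls in each of the other two libraries, against 31.1%, 26.5% and 28.5% of all genes. Cytosolic ribosomal proteins (40 genes) had medians of 0.16, 0.04 and -0.09, and the nuclear-encoded respiratory chain (30 genes) 0.11, -0.01 and -0.08. Proteasome subunits (27 genes) had medians of 0.13, -0.03 and -0.07. The 13 mitochondrially encoded genes had -0.03, 0.18 and -0.26. Over the 3 libraries these lists had medians of -0.01, 0.04, 0.04, 0.02 and -0.02 with no gene called. Without siCLOCK replicate 3 their medians were 0.04, 0.09, 0.05, 0.08 and 0.05, again with no call.

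Of 20 aminoacyl-tRNA synthetases, 16 were below 0 (median -0.08, and -0.06 without siCLOCK replicate 3) and GARS, for glycine, fell without it (-0.34, adjusted p = 0.0337; -0.31 and 0.113 with all libraries). Genes that respond to double-stranded RNA were examined because siRNA is double-stranded. The 24 measured interferon-stimulated genes had medians of 0.02 and, without siCLOCK replicate 3, 0.01 with none called, and 14 and 16 lay above 0. IFIT3 was at 4.76 to 5.33 CPM in controls and 7.57, 5.48 and 6.24 in siCLOCK (0.37 ± 0.14, adjusted p = 0.426; 0.38 and 0.326). IFI6 was at 15.3 to 19.1 CPM in controls and at 22.7, 26.1 and 14.3 in siCLOCK, above all controls in replicates 1 and 2 and below them in replicate 3 (0.24, adjusted p = 0.743; 0.45 and 0.0574). The 19 genes of RNA interference and double-stranded RNA sensing had medians of 0.04 and 0.02, with AGO2 at 0.16 and 0.17 and AGO1 at -0.12 and -0.15. The 17 NF-kB targets had medians of 0.02 and 0.08, with CXCL1 at 1.01 to 1.63 and 1.78 to 2.04 CPM (0.61, adjusted p = 0.511; 0.65 and 0.385).

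Other lists had no gene called with either set of libraries. With all libraries and without siCLOCK replicate 3, the medians were 0.03 and 0.02 for the unfolded protein response (22 genes), 0.01 and 0.06 for heat shock chaperones (18 genes), 0.00 and 0.03 for cholesterol synthesis (23 genes) and -0.00 and -0.02 for fatty acid metabolism (24 genes). They were 0.02 and 0.05 for glycolysis and hypoxia-inducible genes (29 genes), -0.02 and -0.03 for splicing factors (27 genes), -0.01 and -0.01 for apoptosis regulators (25 genes) and -0.04 and 0.01 for clustered histones (13 genes).

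**Figure D4:**
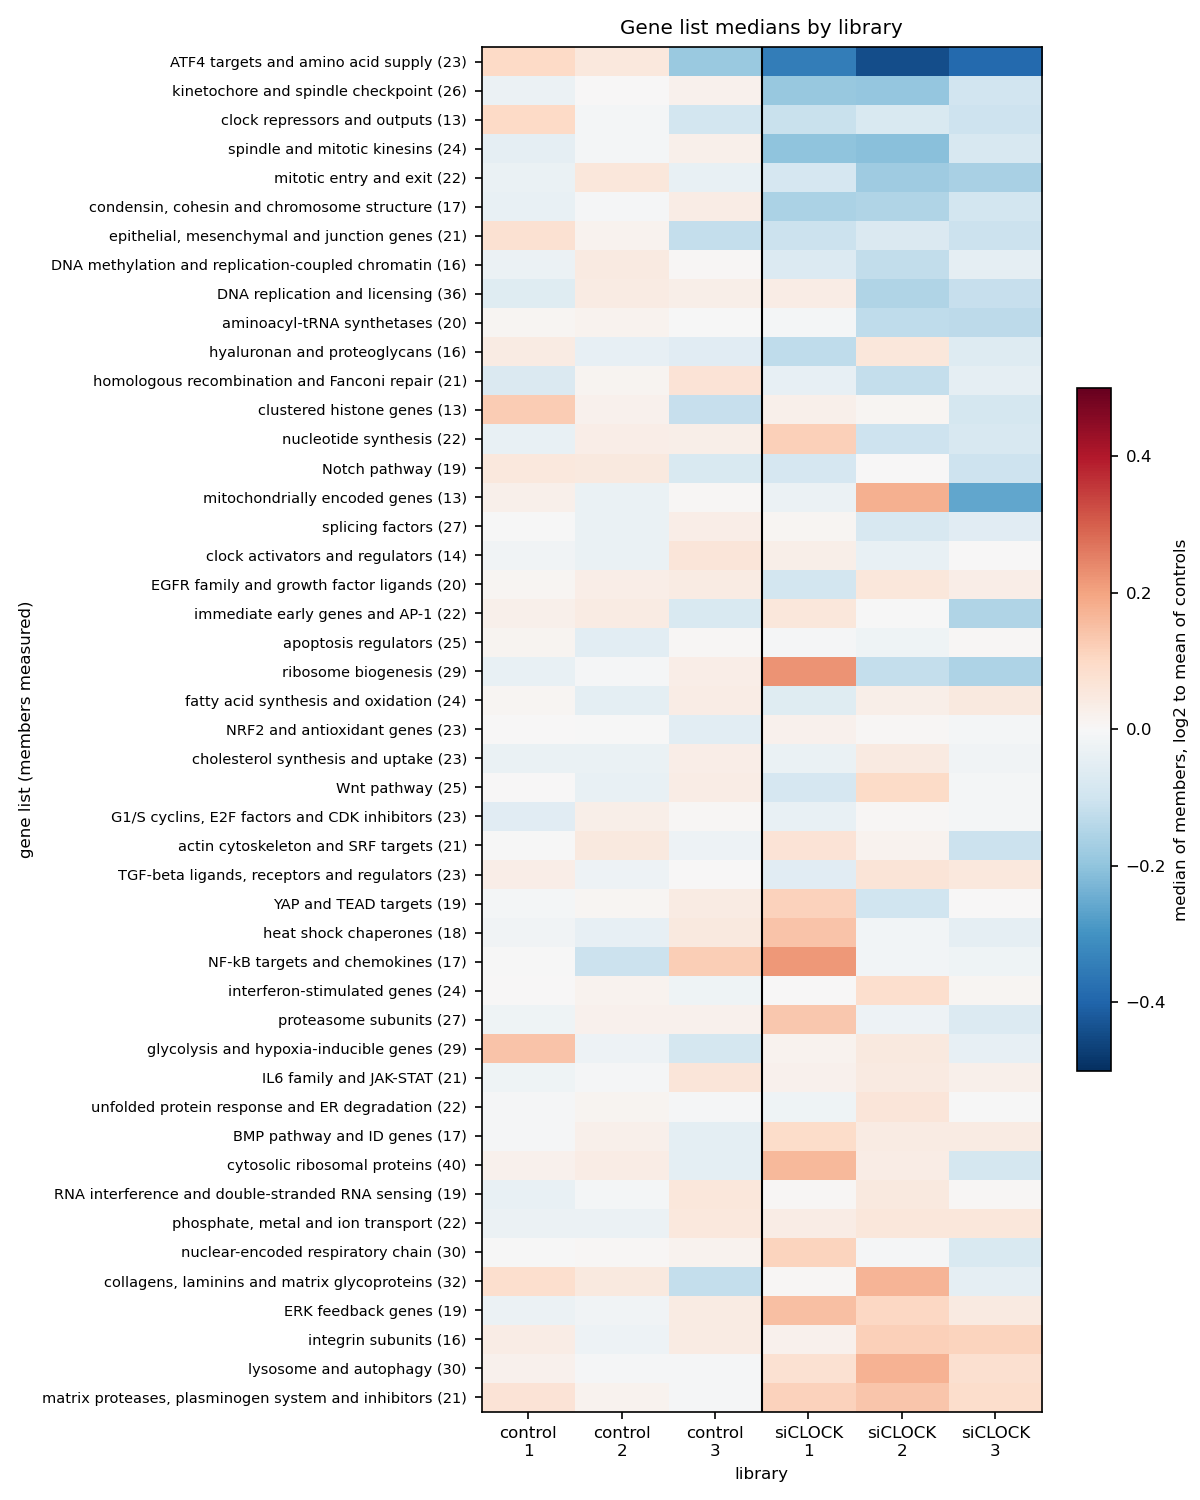
Median log2 level of the measured members of each gene list in each of the 6 libraries against the mean of the controls, as a colour scale (blue below 0, red above), sorted by the median fold change. The list of ATF4 and amino acid supply and the 4 mitosis lists are below 0 in all siCLOCK libraries. So are several others, such as clock repressors and outputs and epithelial, mesenchymal and junction genes. Ribosome biogenesis and the mitochondrially encoded genes change sign between the siCLOCK libraries.

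The E-box was looked for in the called genes because CLOCK binds it. Of the 9 genes higher with all libraries, 7 had a promoter window and 4 of these held CACGTG (SLC20A1, SERPINE2, FAM3C and HAS3). The rise of HAS3 rests on the reads outside its overlap with CHTF8. Whether CLOCK acts on any of these genes was not tested. Of the 11 lower, 8 had a window and GADD45B held it. Over the 10942 tested genes with a window, 10.1% held it, and over the 43 of 57 genes higher without siCLOCK replicate 3 that had a window 9 did (20.9%). Over the 31 of 41 genes lower without that library that had a window, 2 did (6.45%). The windows of SLC20A1 (chr2:112645689-112645988, forward strand) and SERPINE2 (chr2:224031429-224031728, reverse strand), from RefSeq on GRCh38.p14, are shown with the E-box in capitals.
SLC20A1: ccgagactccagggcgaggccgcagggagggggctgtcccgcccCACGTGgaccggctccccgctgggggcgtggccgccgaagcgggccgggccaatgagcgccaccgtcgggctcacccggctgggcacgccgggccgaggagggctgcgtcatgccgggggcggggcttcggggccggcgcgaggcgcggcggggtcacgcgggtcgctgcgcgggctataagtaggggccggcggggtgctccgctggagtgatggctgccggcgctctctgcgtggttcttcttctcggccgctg
SERPINE2: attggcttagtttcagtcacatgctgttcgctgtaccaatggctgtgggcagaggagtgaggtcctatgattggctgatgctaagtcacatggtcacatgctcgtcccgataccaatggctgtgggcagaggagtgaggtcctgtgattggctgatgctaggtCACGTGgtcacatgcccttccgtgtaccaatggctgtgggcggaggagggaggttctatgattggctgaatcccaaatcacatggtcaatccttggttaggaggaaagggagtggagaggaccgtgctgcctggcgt
The counts are small, the windows cover 1 start per gene, and no binding was measured in these samples.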

How the data were processed

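Total RNA of 9 H1299 samples was sequenced. The authors deposited unnormalized gene counts; per the submitters' processing notes, they used STAR 2.7.9a and GRCh38 (hg38). The annotation is not given in the sources used here; all 58721 identifiers matched GENCODE 29, which gave symbols and positions. The strand totals were nearly equal, so the counts regardless of strand were used, and antisense, overlapping and duplicated genes cannot be separated. Lines that name no gene (unmapped, multimapped, outside genes or ambiguous reads) stayed out of library sizes and tests.

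edgeR 4.0.16 (R 4.3.3) kept 16441 genes with filterByExpr over the 3 groups, scaled libraries by TMM and fitted its quasi-likelihood model to all 9 libraries, 1 term for each group. Two-sided F tests were adjusted by Benjamini-Hochberg over all genes, with a threshold of 0.05. The standard error is the size of the log2 fold change divided by the square root of F. Fits without siCLOCK replicate 3 used the same 16441 genes and 8 libraries. CPM are TMM-scaled. On simulated data for this comparison, with 16441 genes, the test recovered 85% of 1.5-fold and 97% of 2-fold changes, with 15 false calls among 197. Recovery with siCLOCK libraries as uneven as the measured ones was not tested.

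The comparison, the gene lists and the rule for naming genes were chosen with earlier results of these data known. Named were CLOCK, every gene past the threshold, the 10 coding genes that rose most and the 10 that fell most without siCLOCK replicate 3 (mean of at least 5 CPM, no overlap), for each list with at least 3 measured members the 3 with the smallest p and those past the threshold without siCLOCK replicate 3, and markers of the line. Some genes that these choices cover are not reported here. Alternatives were DESeq2 1.42.0, limma-voom (limma 3.58.1), other scalings, filters, count columns, thresholds, a replicate block and each library left out.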

Additional observations from a re-analysis of the deposited data

How the results depend on the processing

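The counts of higher and lower genes (9 and 11) were 48 and 21 with DESeq2, 152 and 59 without a filter, 3 and 2 with at least 5 CPM in 3 libraries, 3 and 4 with only the 6 libraries, 2 and 1 at an adjusted p under 0.01, and 3 and 7 when a log2 fold change of 0.5 or more in size was also asked. The lower count was 3 and 7 in the 2 single-strand columns. Leaving out 1 library gave 1 to 70 higher and 1 to 41 lower. Without siCLOCK replicate 3, the controls and siCLOCK alone gave 7 and 5, and remaking the low-count filter, an alternative chosen after seeing the data, gave 60 and 43. The other settings, apart from the replicate block given after them, stayed within 1.5 times. DESeq2 shared 11 of the 20 genes and the fit without a filter all 20. The share of higher calls, 45.0%, was 69.6% with DESeq2 and 72.0% without a filter. The cause of these shifts was not tested. CLOCK was lower in all settings (-0.62 to -0.21) and passed the threshold in 3: without a filter (-0.42, adjusted p = 0.000579), without siCLOCK replicate 3 (-0.62, adjusted p = 0.0211), and with the filter remade (-0.62).

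With the replicate number as a block the counts were 4 and 8, of which 12 genes were among the 20. The numbers did not pair the samples: deviations of same-numbered libraries correlated at -0.174, 0.137 and 0.208 over 11169 genes, and control 1 with siCLOCK 2 at 0.220. Differences that changed sign in another setting were HAS3 (-0.0134 in one single-strand column), VIM in siCLOCK against control (-0.00249 with upper-quartile scaling) and EEF1A1P5 without siCLOCK replicate 3 (-0.00915 with controls and siCLOCK only, -0.0134 with the filter remade). With 1 library left out, CFL2 ranged from -0.484 to 0.117, CD164 from -0.380 to 0.118, RAB13 from -0.00936 to 0.572, EEF1A1P5 from -0.0146 to 1.31, KRT18 from -0.0386 to 0.183 and VIM from -0.0396 to 0.0747. Of these genes only HAS3 had passed the threshold with all libraries. Of 968 list medians recomputed for 51 lists, 88 moved by more than their spread between libraries.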
